A study of Rattus norvegicus with 46 samples.

Results

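The comparison described here is the change with duration in passively loaded leg muscle: 4 loaded legs sampled at 5-8d against 13 loaded legs sampled at 6h-4d, chosen by the words for loading and time in the sample titles. These are 17 of the 46 arrays of the series, with 1 array per leg and 1 loaded leg per rat. All rats were female Sprague-Dawley rats kept in an experimental intensive care model. Both groups were anaesthetised with isoflurane, paralysed with the nicotinic receptor blocker alpha-cobrotoxin, mechanically ventilated and held at a body temperature of 37 °C. A lever bent and stretched the ankle of the left leg through its full range at 13.3 cycles per minute, for 6 h in the rats studied for the shortest time and for 12 h per day in the others. Messenger RNA of the proximal gastrocnemius, a calf muscle, was measured on Affymetrix arrays. The right leg of the same rats was not moved and is called the unloaded leg.

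Each window pools rats of different durations, and the labels used here give neither the duration nor the age of a single rat. Rats without the intensive care treatment were not analysed here, so every value below is a difference between 2 windows of treatment, not a difference from healthy muscle. The labels also carry a 6-digit code of unstated meaning, numbered 1 to 5 here. The later legs 42 and 44 have code 3 and legs 54 and 56 have code 5. The early legs have code 1 (1 leg), code 2 (2 legs), code 3 (4 legs) and code 4 (6 legs), so only code 3 holds both windows. Among these 17 legs, codes 1, 2 and 4 hold only early legs and code 5 only later ones, so there the window and the code cannot be told apart. In a fit with the code as a block, the early side therefore rests on the 4 early legs of code 3 (legs 32, 34, 36 and 38).

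Muscle that is not driven by its nerve spreads acetylcholine receptors over the whole fibre surface, re-expresses myogenic regulators of the embryo and loses protein through the ubiquitin-proteasome system and autophagy. Stretch acts on the fibre through titin and the Z-disc, and raises the messenger RNA of ankyrin-repeat and LIM-domain proteins that sit there. Myostatin, follistatin and the insulin-like growth factors set the balance of muscle growth.

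The samples had the profile of muscle fibres. The 12 measured defining genes of skeletal muscle fibre had a mean level of 13.47 to 13.74 (log2) in the early legs and 13.42 to 13.58 in the later ones, while the array medians of these legs lay between 6.10 and 6.20. The arrays resolved a window difference with a median standard error (SE) of 0.14 log2 units, and the number of arrays limits this precision. Legs 22 and 28 were the closest of the 136 pairs of loaded legs, with an SD of their difference of 0.14 over all genes against 0.25 for the next pair.

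Of 9289 genes tested with limma, 3620 (39%) passed an adjusted p of 0.05 in the loaded legs. Of these, 2503 (26.9% of all genes) were higher at 5-8d and 1117 (12%) were lower. This split depended on the scaling, since cyclic loess gave 1747 higher and 1610 lower genes, and the share of called genes that were higher moved from 69.1% to 52.04%. Most differences were small: the median size was 0.54 log2 units among higher genes and 0.64 among lower ones. A called difference of at least 2-fold was found for 266 higher genes (2.86%) and 261 lower genes (2.81%). All 4 later legs lay above all 13 early legs for 604 genes (6.5%), and all 4 lay below for 228 (2.45%). With the code as a fixed block the counts were 557 higher and 293 lower (9.15% in all), without the legs of code 5 they were 1387 and 579 (21.2%), and within code 3 alone, with 2 legs against 4, 1 gene was higher and 0 were lower in limma, with 976 at an unadjusted p under 0.05. Of the 144 called genes among those chosen for naming, 60 kept their call with the code as a block and 84 lost it, and without code 5 the numbers were 97 and 47. All differences below are 5-8d minus 6h-4d in log2 units with their SE, and an adjusted p is from limma over all 9289 genes.

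The 13 early legs were not alike. On the first principal component, which held 50.8% of the variance over these 17 legs, the later legs scored 33.98 to 45.32. Leg 38 scored 28.4 and leg 36 scored 16.9, while legs 24, 30 and 32 scored -5.8, 0.4 and -0.6 and the other 8 early legs scored from -27.2 to -19.2. Legs 36 and 38 have code 3, as do the later legs 42 and 44, but so do early legs 32 and 34, and leg 34 had the lowest score of all 17 legs (-27.2). Of the 2503 genes called higher, leg 36 or leg 38 was the highest early leg in 73.2%, and of the 1117 called lower, one of them was the lowest early leg in 67.7%. Without both legs the counts were 2818 higher and 1381 lower.

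**Figure D1:**
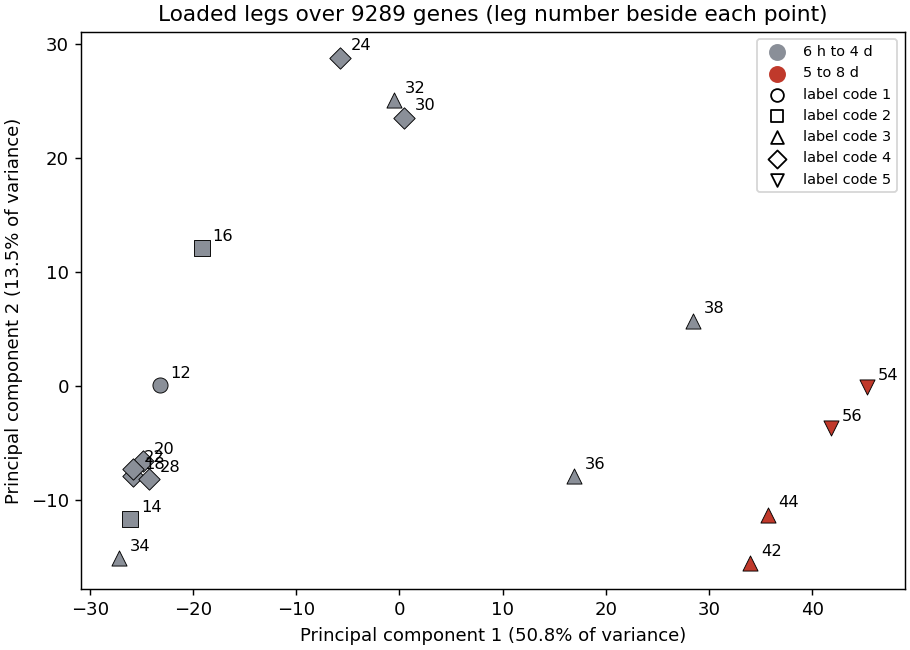
First and second principal component of the 17 loaded legs over all tested genes, with 1 point per leg, red for 5-8d, grey for 6h-4d, and the marker shape giving the label code. The 4 later legs lie at 33.98 to 45.32 on the first component, and early legs 36 (16.9) and 38 (28.4) lie nearest to them.

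Genes of the acetylcholine receptor and of denervated muscle were higher in the later legs. Of 20 measured members of this list, 9 rose (45% of the list, against 26.9% of all genes called higher) and 0 fell, with a median difference of 0.66 log2 units against 0.06 over all genes. Chrna1, the alpha subunit that binds acetylcholine and the cobrotoxin, stood at 6.73 at its lowest, 8.32 at its median and 10.58 at its highest early leg (log2), and at 8.60, 12.65, 13.11 and 13.32 in legs 42, 44, 54 and 56. Leg 42 lay within the early range and the other 3 later legs above it. The mean difference was 3.68 ± 0.68 (SE), or 12.8-fold, with an adjusted p of 0.000278. Chrnb1, the beta subunit, stood between 9.52 and 10.43 in the early legs with a median of 9.85, and at 10.73, 10.86, 10.61 and 10.95 in the later legs, which did not overlap with the early ones. It rose by 0.96 ± 0.12 (adjusted p = 5.28e-06). Chrnd, the delta subunit, ranged from 5.91 to 9.32 early (median 6.81) and read 8.00, 9.21, 10.85 and 10.90 later, so that legs 42 and 44 fell inside the early range. It rose by 2.29 ± 0.58 (adjusted p = 0.00373).

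The receptor exists in a fetal form with a gamma subunit and an adult form with an epsilon subunit. Chrng, the gamma subunit, ranged from 6.21 to 6.98 in the early legs and read 6.49, 7.08, 8.39 and 9.05 in the later ones, so the higher values were those of legs 54 and 56, both of code 5. Its rise of 1.09 ± 0.41 (adjusted p = 0.0381) was not called without leg 56 (0.248), leg 54 (0.155) or early leg 12, 14 or 34 (up to 0.0519). Chrne, the epsilon subunit, ranged from 5.34 to 8.73 early and read 5.89, 8.48, 7.58 and 8.19 later. Its difference of 1.17 ± 0.51 was not called (adjusted p = 0.0749). It was called without early leg 14 (0.0176), early leg 38 (0.0269) or leg 42 (0.0155). Musk, the kinase that clusters receptors at the synapse, ranged from 6.91 to 8.68 early and read 7.63, 8.28, 8.92 and 9.15 later. It rose by 1.00 ± 0.34 (adjusted p = 0.0243), a call lost without leg 54 (0.0988) or leg 56 (0.121). Lrp4, the agrin receptor that partners Musk, rose by 0.73 ± 0.20 (adjusted p = 0.00704, and 0.0526 without leg 56).

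Other members of this list mark denervated fibres. Ncam1, a cell adhesion molecule, read 8.43 to 10.52 early (median 9.50) and 10.70, 12.90, 11.44 and 12.04 later, with no overlap. It rose by 2.29 ± 0.33 (adjusted p = 2.94e-05). Runx1, a transcription factor, read 12.02, 12.93, 12.71 and 12.81 in the later legs against an early median of 9.91, and early leg 38 read 12.82, within the later range. Its rise was 2.49 ± 0.46 (adjusted p = 0.000258). Gadd45a, a stress protein induced in denervated muscle, rose by 2.55 ± 0.50, with leg 38 (11.79) again inside the later range of 10.97 to 12.31. The block by code left 2 members of this list called in place of 9 (without code 5, 4), and Ncam1 (2.38) and Chrnb1 (0.77) were among those named here that stayed called. The corresponding value for Chrna1 was 2.37, with an adjusted p of 0.101, and without code 5 its adjusted p was 0.0619. These samples are whole muscle, in which a change in the number of cells of a type and a change in the RNA of each cell cannot be told apart.

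Myogenic factors bind the E-box CAGCTG, and promoters of the receptor genes are shown because several members of this group rose together. RefSeq (GRCr8) gave windows of 300 bases, 250 before to 50 after the start of the gene, for 7 of the 9 members that rose, and 5 of these held CAGCTG, while those of Chrnd and Runx1 did not. Of 8 uncalled members with a window, 2 held it (Chrne and Etv5). The letters read the same on both strands, and 15.1% of all 27457 promoters of this length held them, as did 16.2% of all promoters of genes called higher and 18.9% of those of genes called lower. A pair or more of such matches was found in 1.68% of all promoters. The windows of Chrna1 (chr3:78877304-78877603, minus strand) and Chrng (chr9:95325734-95326033, plus strand) had 2 matches each, which begin 75 and 27 bases, and 26 and 3 bases, before the start. Those of Chrnb1 (chr10:55015058-55015357, minus strand) and Musk (chr5:77853486-77853785, plus strand) had 1 match each, 41 and 79 bases before it. The matches are in capitals below, each sequence is written 5′ to 3′ on the strand of its gene, and a match describes letters and not a bound site.
Chrna1: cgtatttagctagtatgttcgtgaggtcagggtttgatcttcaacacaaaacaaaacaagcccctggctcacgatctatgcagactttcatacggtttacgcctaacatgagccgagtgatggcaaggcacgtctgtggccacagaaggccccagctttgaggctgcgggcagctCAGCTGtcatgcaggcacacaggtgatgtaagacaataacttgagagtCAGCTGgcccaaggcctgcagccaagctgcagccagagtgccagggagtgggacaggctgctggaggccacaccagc
Chrnb1: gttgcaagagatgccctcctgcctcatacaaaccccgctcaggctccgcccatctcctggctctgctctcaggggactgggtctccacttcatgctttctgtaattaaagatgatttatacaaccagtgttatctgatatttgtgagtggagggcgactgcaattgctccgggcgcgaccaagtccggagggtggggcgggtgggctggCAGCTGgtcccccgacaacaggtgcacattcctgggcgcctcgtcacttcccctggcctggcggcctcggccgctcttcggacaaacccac
Chrng: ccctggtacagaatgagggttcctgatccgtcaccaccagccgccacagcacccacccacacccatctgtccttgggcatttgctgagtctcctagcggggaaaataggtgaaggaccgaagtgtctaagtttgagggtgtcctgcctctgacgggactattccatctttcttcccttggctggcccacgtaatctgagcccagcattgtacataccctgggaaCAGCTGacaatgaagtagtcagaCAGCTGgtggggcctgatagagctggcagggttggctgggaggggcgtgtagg
Musk: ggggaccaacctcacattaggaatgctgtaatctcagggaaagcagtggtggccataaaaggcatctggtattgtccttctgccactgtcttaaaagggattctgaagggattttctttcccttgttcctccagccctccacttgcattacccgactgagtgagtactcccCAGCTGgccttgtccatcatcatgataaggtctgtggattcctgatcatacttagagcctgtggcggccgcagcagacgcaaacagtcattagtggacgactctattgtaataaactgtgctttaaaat

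Myogenic regulators were higher in the later legs. Of 17 measured members of the list of myogenic, fusion and developmental sarcomere genes, 9 rose (52.9%, against 26.9% of all genes) and 1 fell. The median difference was 0.47. Myog, the factor that drives terminal muscle differentiation and activates receptor genes, stood at 6.53 at its lowest, 7.72 at its median and 11.52 at its highest early leg, and at 11.11, 11.29, 11.88 and 11.45 in legs 42, 44, 54 and 56. The highest early leg was leg 38, which lay among the later legs. Myog rose by 3.20 ± 0.59, or 9.19-fold (adjusted p = 0.000291). Myod1 rose by 1.84 ± 0.48 (adjusted p = 0.00451), from an early median of 8.19 to 9.57, 10.58, 10.99 and 10.65, and its highest early leg was leg 36 at 11.21. Myf5, made in satellite cells, rose by 1.58 ± 0.35, and Cdkn1a, the cell cycle inhibitor p21, by 1.70 ± 0.30. Blocking by code, limma called 0 members of this list (Myog 1.85, adjusted p = 0.124), and without code 5 there were 3 higher.

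Stretch-responsive genes of the Z-disc and titin moved in both directions. Of 18 measured members, 5 rose (27.8%, near the 26.9% of all genes) and 7 fell (38.9%, against 12%). The median of 0.10 turned below 0 with the code as a block (-0.04), within code 3 and without code 5. Ankrd1, a titin-binding ankyrin-repeat protein induced by stretch and denervation, had the largest rise of all 9289 genes in this fit. It read 5.99 at its lowest, 7.93 at its median and 12.49 at its highest early leg (leg 38), and 12.47, 12.09, 12.70 and 13.27 in the later legs, so that 12 of 13 early legs lay below all later ones. The rise was 4.63 ± 0.79, or 24.7-fold (adjusted p = 0.000146), and with the code as a block it was 3.80 (0.0347). Csrp3, the muscle LIM protein, ranged from 6.04 to 11.01 early and read 12.65, 11.04, 12.41 and 11.78 later, with no overlap, and rose by 2.45 ± 0.72 (adjusted p = 0.00953, and 0.13 with the code as a block). Ankrd2, another stretch-responsive ankyrin-repeat protein, ranged from 6.36 to 12.45 early and read 12.16, 7.82, 11.02 and 11.15 later. Its difference of 0.75 ± 1.03 was not called (adjusted p = 0.598).

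Among the members that fell were scaffolds of the same structure. Ldb3, a Z-disc protein that holds alpha-actinin, ranged from 11.11 to 12.85 early and read 10.21, 9.86, 9.40 and 10.23 later, with no overlap. It fell by 2.47 ± 0.30 on the log2 scale (adjusted p = 3.85e-06), and the block by code left the call in place (-2.19). Fhl3, a LIM protein, fell by 2.29 ± 0.30, also with no overlap of the legs. In the list of costamere and mechanosensor genes, 7 of 18 rose (38.9%, against 26.9% of all genes) and 3 fell (16.7%, against 12%). The median was 0.12, and -0.03 with cyclic loess. Dysf, which reseals the torn fibre membrane, read 10.48 to 11.52 early and 12.05, 11.84, 11.83 and 12.09 later, and rose by 1.22 ± 0.14 (adjusted p = 3.37e-06). Tln1, which links integrins to actin, rose by 0.85 ± 0.14. Capn3, the muscle calpain bound to titin, fell by 1.61 ± 0.21 (adjusted p = 8.24e-06), and Sgcd, a sarcoglycan, fell by 1.25 ± 0.19. In all 4 of these genes the later legs lay on 1 side of every early leg.

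**Figure D2:**
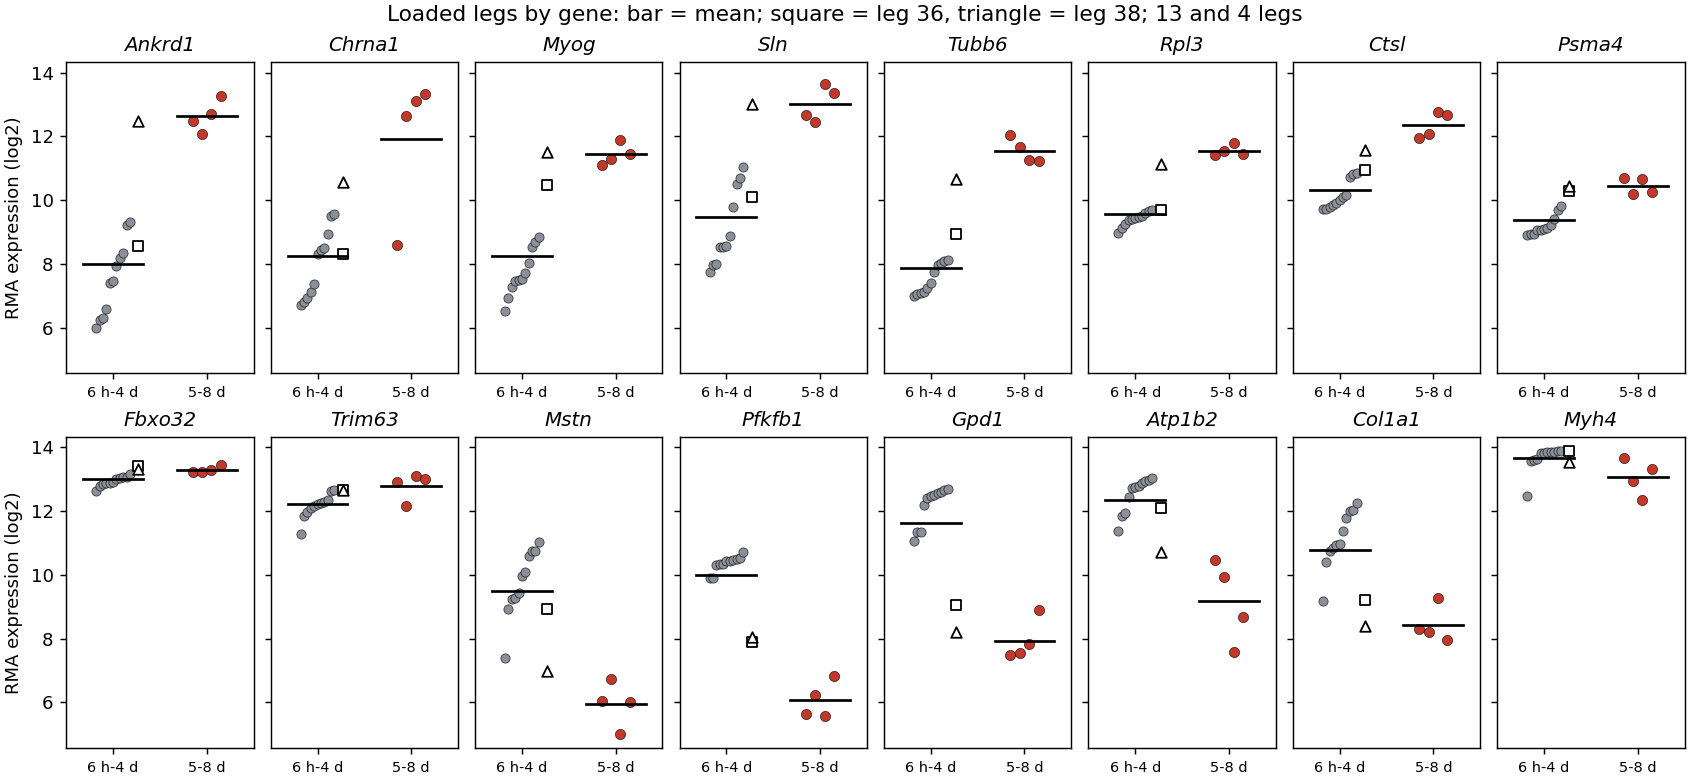
Expression (RMA, log2) of 16 named genes in the loaded legs, with 1 point per leg, grey for the 13 legs of 6h-4d (leg 36 as an open square, leg 38 as an open triangle), red for the 4 legs of 5-8d, and a bar for each group mean. Ankrd1, Myog and Sln of leg 38 lie within the range of the later legs, Tubb6, Rpl3, Ctsl, Mstn, Pfkfb1 and Atp1b2 show no overlap, and Chrna1 of leg 42 (8.60) lies apart from the other 3 later legs.

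Tubulins and microtubule-associated genes rose in most measured members. Of 25, 14 rose (56%, against 26.9% of all genes) and 2 fell, with a median of 0.55. Tubb6, a beta-tubulin, ranged from 6.98 to 10.65 early (median 7.74) and read 12.05, 11.66, 11.28 and 11.24 later. No leg overlapped, the rise was 3.67 ± 0.45, or 12.8-fold (adjusted p = 5.11e-06), and with the code as a block it was 3.41 (0.00227). Dclk1, a kinase that binds microtubules, rose by 3.11 ± 0.40 and Tuba1a, an alpha-tubulin, by 2.10 ± 0.32, both with no overlap. Tuba1b, another alpha-tubulin, read 12.10 and 11.81 in legs 54 and 56 but 9.08 and 9.46 in legs 42 and 44, against 8.53 to 9.60 early. Its rise of 1.53 ± 0.44 (adjusted p = 0.00881) was not called without leg 54 (0.0877) or leg 56, and the difference was 0.18 without code 5. Under the block by code, 7 members of the list were higher and 1 was lower.

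Cytosolic ribosomal proteins rose in most members. Of 69 measured cytosolic ribosomal proteins, 57 rose (82.6%, against 26.9% of all genes) and 0 fell, with a median of 0.47, and for 40 of them all 4 later legs lay above all 13 early ones (6.5% of all genes did so). The block by code left 41 called, and cyclic loess 51. Rpl3, a large-subunit protein, ranged from 8.96 to 11.13 early (median 9.47) and read 11.40, 11.55, 11.78 and 11.45 later. It rose by 1.98 ± 0.23, or 3.95-fold (adjusted p = 3.5e-06). Rps12, of the small subunit, ranged from 8.75 to 10.005 early and read 10.10, 10.20, 10.67 and 10.45 later, and it rose by 1.08 ± 0.15 (adjusted p = 1.88e-05). Rps21 rose by 0.97 ± 0.14. Rpl36 read 12.64 and 12.52 in legs 54 and 56 but 11.36 and 11.34 in legs 42 and 44, just above the early range of 10.90 to 11.28, and rose by 0.90 ± 0.21. Ribosomal protein genes have many processed copies in the genome, and how far a probe set of this array reads such copies was not tested.

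Genes that load and build ribosomes moved the same way. Of 32 translation initiation and elongation factors, 20 rose (62.5%, against 26.9% of all genes) and 3 fell (median 0.33). With the code as a block 6 were higher. Eef1a1, which carries amino-acyl tRNA to the ribosome, ranged from 11.76 to 12.73 early and read 13.04, 13.30, 13.63 and 13.42 later, a rise of 1.03 ± 0.12 (adjusted p = 3.93e-06). Eef1b2, its exchange factor, rose by 1.03 ± 0.15 and Eif4a1, the helicase of initiation, by 0.88 ± 0.19. Eef2k, the kinase that halts elongation, fell by 1.17 ± 0.23 (adjusted p = 0.000438). Of 24 nucleolar and ribosome assembly genes, 15 rose (62.5%, against 26.9% of all genes) and 0 fell (median 0.41). Without leg 54 there were 9, and with the code as a block 2. Polr1a, the largest subunit of RNA polymerase I, read 7.25 to 8.61 early and 8.89, 8.68, 9.29 and 9.24 later, and rose by 1.23 ± 0.21 (adjusted p = 0.000171). Bop1 (0.90 ± 0.17), Npm1 (0.80 ± 0.16) and Wdr12 (0.88 ± 0.17), which process and export ribosomal precursors, rose as well.

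Many proteasome subunits rose. The ubiquitin ligases Fbxo32 and Trim63 were not called in the fit used here, though some alternative fits called them. Of 40 proteasome subunits 24 rose (60%, against 26.9% of all genes) and 0 fell, with a median of 0.55. In 2 subunits (5%, against 6.5% of all genes) all later legs lay above all early ones. The count of 24 higher subunits fell to 14 without leg 54, to 4 without code 5 and to 1 with the code as a block. Psmd10, an assembly factor of the regulatory cap, ranged from 6.24 to 7.06 early and read 8.04, 7.41, 7.82 and 7.70 later, and rose by 1.12 ± 0.14 (adjusted p = 4.36e-06). Psma4, of the core ring, ranged from 8.89 to 10.44 early and read 10.71, 10.18, 10.66 and 10.27 later, so early legs 36 (10.27) and 38 lay among the later legs. It rose by 1.08 ± 0.23. Psmb4 rose by 0.89 ± 0.23, and Psmd8 by 0.89 ± 0.28, the latter not called without leg 42 (0.0809). The mean of all 40 subunits stood 0.79 above the median early leg in both leg 36 and leg 38, and 0.55 to 0.76 above it in the later legs.

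Fbxo32 (atrogin-1) and Trim63 (MuRF1) are the ligases that mark muscle wasting. Fbxo32 ranged from 12.62 to 13.42 early (median 13.02) and read 13.21, 13.22, 13.28 and 13.45 later, a difference of 0.29 ± 0.16 (adjusted p = 0.161). With array quality weights Fbxo32 was called. Trim63 ranged from 11.27 to 12.67 early (median 12.26) and read 12.92, 12.14, 13.11 and 13.01 later, a difference of 0.56 ± 0.27 (adjusted p = 0.105), which was called without leg 44 (0.042). Trim63 was also called with array quality weights and when only the 17 arrays of the 2 windows were fitted. Of 22 atrophy ligases and FoxO genes 4 rose (18.2%, against 26.9% of all genes) and 7 fell (31.8%, against 12%). The median was -0.04, and with the code as a block 1 was higher and 1 lower. Trim55 (MuRF2), another muscle ligase, rose by 0.77 ± 0.21, and Trim72, a ligase of membrane repair, fell by 1.48 ± 0.35. Fbxo30, a ligase induced after denervation, read 7.98, 9.89, 10.50 and 10.16 later against 7.63 to 9.71 early, and rose by 1.38 ± 0.38 (adjusted p = 0.00656, and 0.0516 without leg 54). Foxo1 and Foxo3, transcription factors of the atrophy program, fell by 1.27 ± 0.30 and 0.77 ± 0.16 on the log2 scale. Ddit4 (REDD1) and Sesn1, which restrain mTORC1, fell by 1.80 ± 0.47 and 1.79 ± 0.25. For Sesn1 every later leg (8.01 to 8.47) lay below the lowest early leg (8.78).

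Autophagy and lysosome genes rose in 10 of 28 members (35.7%, against 26.9% of all genes) and fell in 3 (10.7%, against 12%). The median was 0.26, with 5 higher and 1 lower under the block by code. Ctsl, a lysosomal protease, ranged from 9.72 to 11.58 early (median 10.11) and read 11.94, 12.07, 12.77 and 12.66 later, with no overlap. It rose by 2.04 ± 0.28, or 4.11-fold (adjusted p = 1.68e-05). Hexa, a lysosomal hexosaminidase, rose by 0.95 ± 0.13 and Gabarapl2, a protein of the autophagosome membrane, by 0.69 ± 0.10, both without overlap. Manba, lysosomal beta-mannosidase, rose by 2.77 ± 0.43 and was among the 15 largest rises. Of 35 heat shock proteins and co-chaperones, 11 rose (31.4%, against 26.9% of all genes) and 3 fell (8.57%, against 12%), shares near those of all genes, with a median of 0.15 that was -0.00184 with cyclic loess. Hspb8, which with Bag3 directs damaged filaments to autophagy, read 12.26, 12.17, 12.71 and 12.64 later against an early median of 10.87, with leg 38 at 12.57. Bag3 was among the 3 members that fell, while Hspb8 rose by 1.45 ± 0.25. Hspb1, another small heat shock protein, read 13.48 in leg 42 and 11.87 to 12.21 in the other later legs, and its difference of 0.54 ± 0.24 was not called (adjusted p = 0.0834), though it was called without early leg 38 (0.0308) or leg 56 (0.0432). Cct2 and Cct5, subunits of the chaperonin that folds tubulin and actin, rose by 0.90 ± 0.14 and 0.75 ± 0.11.

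Members of the unfolded protein response rose in 11 of 31 cases (35.5%, against 26.9% of all genes) and fell in 0, with a median of 0.18. Without leg 54 there were 7 higher, with the code as a block 0 (limma), and with cyclic loess 6 higher and 4 lower. Sdf2l1, an endoplasmic reticulum chaperone component, rose by 1.01 ± 0.25, Calr, the chaperone calreticulin, by 0.68 ± 0.14, Pdia4 by 0.62 ± 0.20 and Pdia6 by 0.50 ± 0.17. The last 2, which are disulfide isomerases, were not called without leg 42 (Pdia4, 0.0519) or without leg 56 (Pdia6, 0.139). The chaperone counts were likewise 6 higher without leg 54 and 2 with the code as a block.

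**Figure D3:**
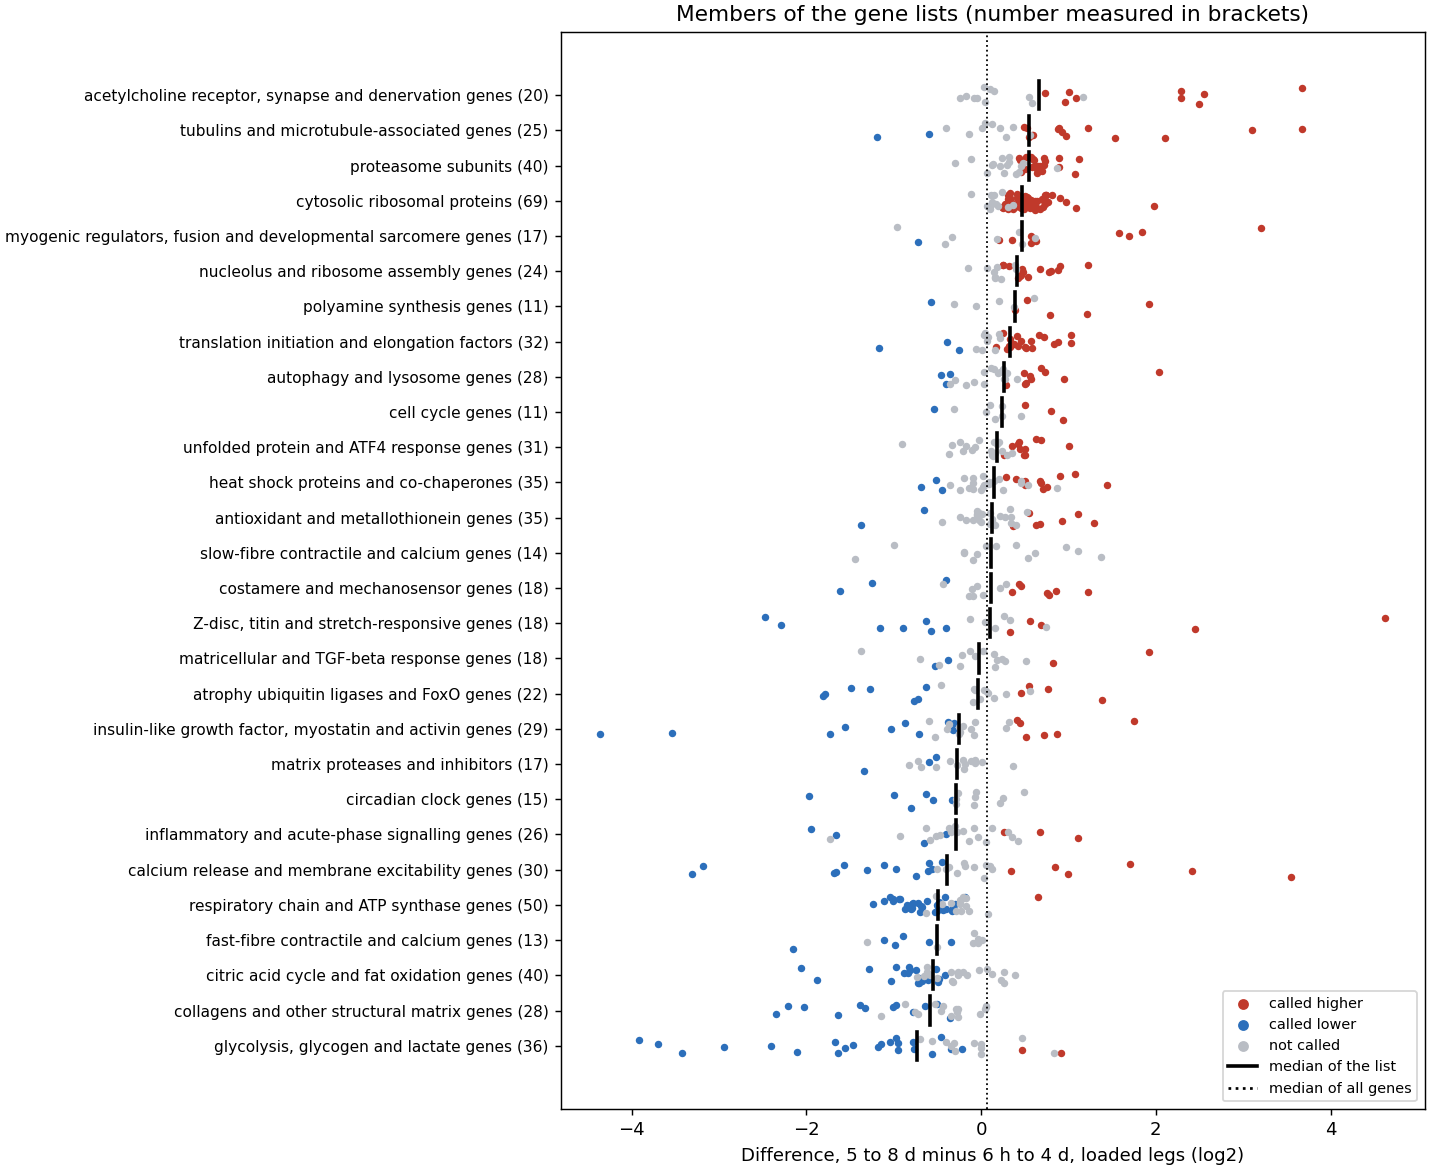
Difference between 5-8d and 6h-4d in the loaded legs (log2) for every measured member of each gene list, with 1 point per gene, red when called higher, blue when called lower and grey when not called, a bar for the median of the list and a dotted line for the median of all genes (0.06). Ribosomal proteins, the proteasome, tubulins and receptor genes lie mostly to the right, and glycolysis, the citric acid cycle, collagens and the respiratory chain mostly to the left.

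Many genes of energy metabolism fell. Of 36 glycolysis, glycogen and lactate genes 22 fell (61.1%, against 12% of all genes) and 2 rose (5.56%, against 26.9%). The median was -0.73. In 8 of the 36 all later legs lay below all early legs (2.45% of all genes did so). Pfkfb1, which makes the activator of phosphofructokinase, ranged from 7.90 to 10.72 early (median 10.35) and read 5.64, 6.24, 5.57 and 6.84 later. It fell by 3.91 ± 0.44 on the log2 scale, or 15.1-fold (adjusted p = 2.29e-06). Gpd1, the cytosolic glycerol-3-phosphate dehydrogenase, had an early median of 12.42, a lowest early leg of 8.22 (leg 38) and later values of 7.49, 7.53, 7.82 and 8.88, so only leg 56 overlapped. It fell by 3.69 ± 0.70, or 12.9-fold (adjusted p = 0.000351). Slc16a3, the lactate exporter MCT4, fell by 3.43 ± 0.60, or 10.8-fold, and its leg 42 (9.18) lay above early leg 38 (8.43). Fbp2, the muscle fructose bisphosphatase, fell by 2.94 ± 0.52 to levels below the array median. Hk2, the inducible hexokinase, went the other way, with 10.13, 9.83, 10.65 and 10.70 later against 8.30 to 9.98 early, a rise of 0.92 ± 0.23 (adjusted p = 0.00358). In the fit blocked by code, 10 members of the list were lower and 0 higher, and Pfkfb1 (-3.35), Gpd1 (-3.23) and Slc16a3 (-2.93) were among the 10.

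Mitochondrial genes fell as well. Of 50 respiratory chain and ATP synthase genes 34 fell (68%, against 12% of all genes) and 1 rose (median -0.49). Of 40 genes of the citric acid cycle and fat oxidation 19 fell (47.5%) and 0 rose (median -0.55). Blocked by code, 15 and 16 were lower. Ndufs7, of complex I, ranged from 12.30 to 13.07 early and read 11.89, 12.07, 11.80 and 11.69 later. It fell by 1.04 ± 0.13 (adjusted p = 4.54e-06). Sdha, of complex II, ranged from 10.60 to 11.53 early and read 9.98, 10.11, 10.58 and 10.45 later. It fell by 1.01 ± 0.18, and Ndufs3 fell by 1.11 ± 0.22. Hadh, of fat oxidation, ranged from 9.83 to 11.88 early and read 9.07, 9.02, 8.96 and 9.17 later. It fell by 2.07 ± 0.24 (adjusted p = 3.5e-06). Idh2, of the citric acid cycle, fell by 1.88 ± 0.25 with no overlap. Acadm, of fat oxidation, fell by 1.03 ± 0.32, a call lost without leg 42 (0.0783). Ppargc1a, the coactivator that drives mitochondrial genes, fell by 1.24 ± 0.47 (adjusted p = 0.0413), and lost the call when leg 44, 54 or 56 or any of 8 early legs was left out (up to 0.128). The 1 member that rose was Tfam, the factor that copies and packs mitochondrial DNA (0.66 ± 0.16).

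Genes of calcium handling and membrane excitability fell in 13 of 30 members (43.3%, against 12% of all genes). The 6 that rose were 20% of the list, against 26.9% of all genes, and the median was -0.38. Sln, sarcolipin, which slows the calcium pump of the reticulum, stood at 7.73 at its lowest, 8.89 at its median and 13.00 at its highest early leg, and at 12.66, 12.45, 13.65 and 13.35 later. Leg 38 was the early leg within the later range. Sln rose by 3.54 ± 0.66, or 11.7-fold (adjusted p = 0.000286). Kcnn3, the small-conductance potassium channel that appears in denervated fibres, rose by 2.42 ± 0.46, from an early median of 9.33 to 12.14, 12.46, 12.68 and 12.44, with leg 38 at 12.40. Atp1b2, a subunit of the sodium pump, ranged from 10.71 to 13.04 early and read 10.48, 9.94, 7.59 and 8.68 later, with the code 5 legs lowest. It fell by 3.18 ± 0.43, or 9.06-fold (adjusted p = 1.56e-05). Aqp4, the water channel of fast fibres, fell by 3.30 ± 0.39, and its later legs read 5.70 to 5.93, below the array medians. Clcn1, the chloride channel that steadies the resting fibre, fell by 1.68 ± 0.31. The block by code left 2 members higher and 7 lower (Sln 2.12, adjusted p = 0.109), and without leg 42 there were 8 lower.

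Contractile genes of fast fibres fell in 6 of 13 members (46.2%, against 12% of all genes) and rose in 0. The median was -0.51. Mylk2, the kinase of the fast myosin light chain, ranged from 10.99 to 12.77 early and read 10.70, 9.92, 9.86 and 9.79 later. It fell by 2.15 ± 0.24 (adjusted p = 2.29e-06). Actn3, the fast-fibre alpha-actinin, fell by 0.98 ± 0.25 and Myoz1 by 0.89 ± 0.19. Mybpc2, fast myosin-binding protein C, fell by 1.11 ± 0.33, a call lost without leg 54 (0.0546). Blocking by code left 2 members lower. The myosin heavy chains themselves moved little or varied too much between legs. Myh4, the fastest (type IIB) isoform, ranged from 12.48 to 13.89 early and read 13.65, 12.95, 12.36 and 13.32 later. It fell by 0.60 ± 0.23 (adjusted p = 0.0399), a call lost without leg 54 (0.259), without leg 44 (0.0979) or without 7 of the early legs in turn. Myh1 (type IIX) differed by -0.08 ± 0.14 and Myh2 (type IIA) by -1.30 ± 1.11, and neither was called. Without leg 44 the difference of Myh1 was 0.0036.

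Slow-fibre genes gave 0 calls among 14 members in limma (0 at an unadjusted p under 0.05), and the legs of both windows spread widely. Myh7, the slow myosin heavy chain, ranged from 6.64 to 13.12 in the early legs and read 10.05, 9.93, 12.47 and 11.44 in the later ones. Its difference of 0.39 ± 1.13 (adjusted p = 0.811) turned to -0.03 with the code as a block, -0.59 without code 5 and -0.11 without leg 54. Tnnt1, slow troponin T, ranged from 6.48 to 12.46 early and Myl2, a slow light chain, from 7.13 to 12.08, and their differences of 1.37 ± 1.16 and -1.001 ± 0.92 were not called. With array quality weights 2 members of the list were called higher, Tnnt1 among them. The list mean of single early legs ran from -2.07 (leg 36) to 1.72 (leg 16), counted from the early median.

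Growth factor genes included some of the deepest falls. Mstn, myostatin, which limits muscle growth, ranged from 6.97 to 11.04 early (median 9.43) and read 6.04, 6.73, 5.01 and 6.00 later, with no overlap. It fell by 3.54 ± 0.59 (adjusted p = 0.000103), and no fold is given because the later mean lies below the lowest array median. With the code as a block the value was -2.24 (0.0612). Fst, follistatin, which binds myostatin and activins, ranged from 5.90 to 7.75 early and read 6.85, 8.60, 8.97 and 9.23 later, so leg 42 overlapped. It rose by 1.75 ± 0.31 (adjusted p = 0.000194, and 0.1 with the code as a block). Ostn, the secreted peptide musclin, had the largest fall of all genes in this fit (-4.36 ± 0.97 on the log2 scale), from an early median of 10.93 to 5.56, 6.24, 5.32 and 5.45, and early leg 38 was at 5.12. With the code as a block the value for Ostn was -2.80 (0.191). Igf1 ranged from 7.94 to 9.20 early and read 8.75, 8.15, 7.78 and 7.69 later, and was not called (-0.37 ± 0.30, adjusted p = 0.348). With array quality weights Igf1 was called. Igfbp6, a binding protein, fell by 1.72 ± 0.28. Of the 29 genes of this list, 6 rose (20.7%, against 26.9% of all genes) and 10 fell (34.5%, against 12%). The median was -0.25. Under the block by code 1 rose and 2 fell, and without leg 56 there were 6 lower.

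Collagens and other structural matrix genes fell in 12 of 28 members (42.9%, against 12% of all genes) and rose in 0. The median was -0.59. Col1a1, of type I collagen, ranged from 8.40 to 12.25 early (median 10.93) and read 8.29, 8.19, 9.28 and 7.96 later, and leg 54 overlapped with early legs 30, 36 and 38. It fell by 2.34 ± 0.63, or 5.08-fold (adjusted p = 0.00543), and the value was -1.52 (0.299) with the code as a block. Col1a2 fell by 1.63 ± 0.47 and Fn1, fibronectin, by 2.03 ± 0.51, while Col3a1, of type III collagen, differed by -0.87 ± 0.43 and was not called (adjusted p = 0.108). Col3a1 was called with array quality weights and when only the 17 arrays of the 2 windows were fitted. Under the block by code 4 members were lower, without code 5 there were 5, and without legs 36 and 38 there were 17. Markers of other cells moved in the same legs. Of 5 measured tendon markers 4 fell (80%, against 12% of all genes), with a median of -2.21: Kera by 2.52 ± 0.54, Chad by 2.39 ± 0.62, Fmod by 2.21 ± 0.45 and Tnmd by 1.37 ± 0.37. The remaining marker, Scx, differed by 0.45 in the other direction and was not called. With array quality weights 1 tendon marker was called higher and 4 lower. Kera, a proteoglycan, ranged from 7.57 to 9.87 early and read 5.76, 4.49, 7.81 and 5.69 later. The mean of the tendon list ran from 7.86 to 9.95 over the early legs and from 6.12 to 8.24 over the later ones. Of 7 fibroblast markers 4 fell (57.1%, against 12% of all genes), with list means of 9.56 to 10.46 early and 9.26 to 9.53 later. The part of tendon or of fewer connective tissue cells in the matrix result was not tested.

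**Figure D4:**
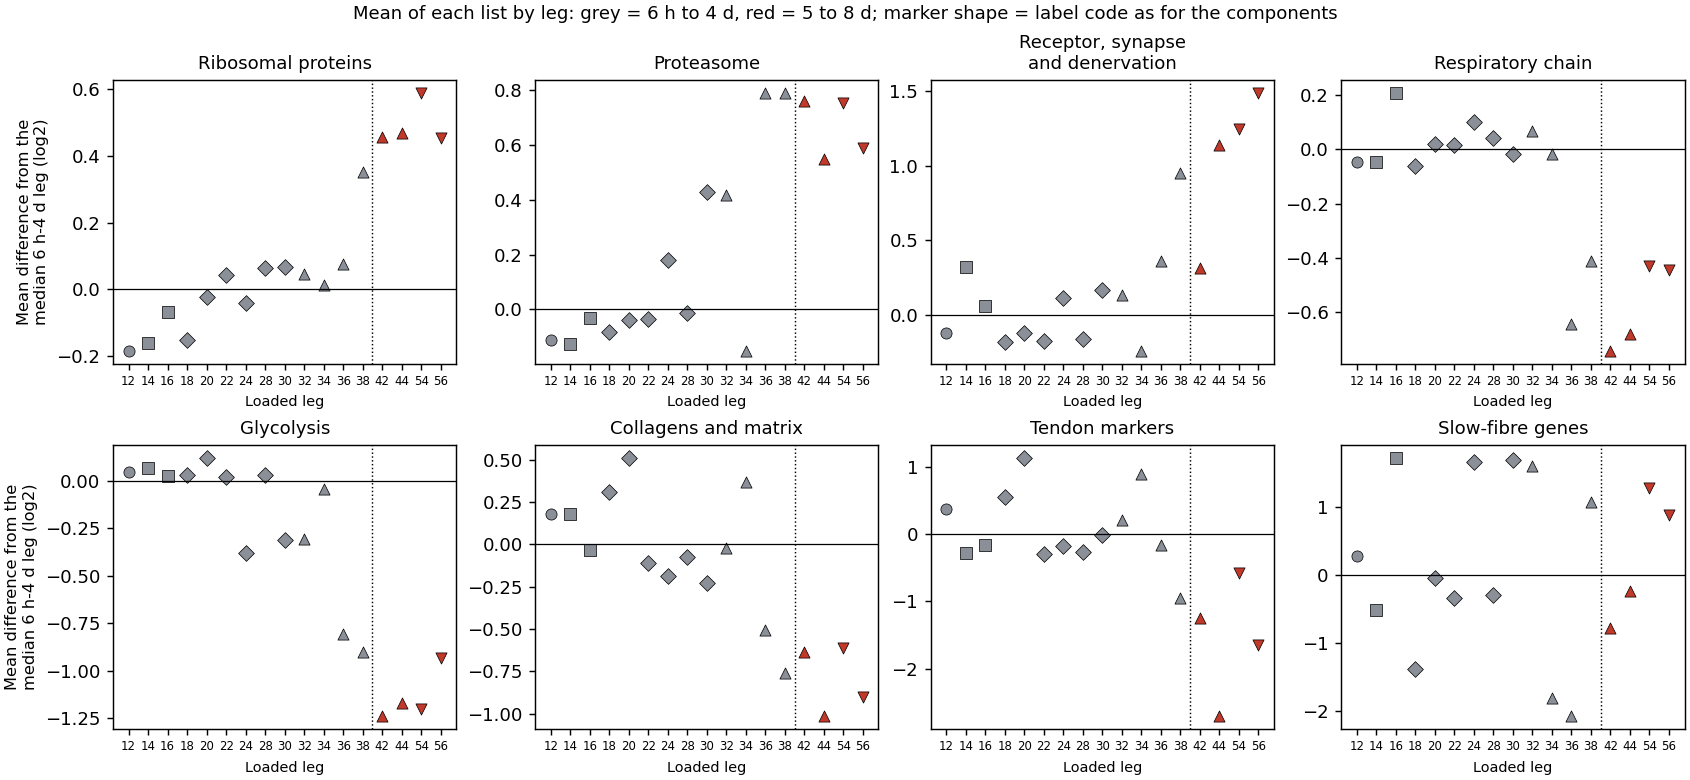
Mean of 8 lists in each loaded leg, as the difference from the median leg of 6h-4d (log2), grey for 6h-4d and red for 5-8d, with leg numbers on the horizontal axis and the marker shape for the label code. Ribosomal proteins of the later legs lie at 0.45 to 0.59, the proteasome is as high in legs 36 and 38 (both 0.79) as later (0.55 to 0.76), tendon markers range from -2.70 to -0.57 among the later legs, and slow-fibre genes scatter within both windows.

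The matricellular and TGF-beta list changed in few members, with 2 of 18 higher (11.1%, against 26.9% of all genes) and 2 lower (11.1%, against 12%). The sign of its median of -0.02 turned in 4 alternatives. Ltbp1, which stores latent TGF-beta in the matrix, rose by 1.92 ± 0.38, and Tgfb2 by 0.82 ± 0.32, the latter not called without leg 44 (0.191) or any of 12 other legs. Bmp4 and Tgfb3 fell by 0.52 ± 0.18 and 0.38 ± 0.13, and both calls depended on single later legs. Ccn2 (-0.70 ± 0.29, adjusted p = 0.0565) was called without early leg 32, 36 or 38 (0.0267 to 0.0406), and Pmepa1 (0.27 ± 0.26), another gene induced by TGF-beta, was not called. Of 17 matrix proteases and inhibitors 3 fell (17.6%, against 12% of all genes) and 0 rose. The 3 included Adamts1 (by 1.34 ± 0.30) and Timp3 (by 0.60 ± 0.17). In the fit blocked by code, neither list had a member called in limma.

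Stress, inflammation and the clock showed smaller groups of changes. Of 26 inflammatory genes 3 rose (11.5%, against 26.9% of all genes) and 4 fell (15.4%, against 12%), and 0 were higher and 1 lower with the code as a block. Fkbp5, which glucocorticoids induce, fell by 1.95 ± 0.53 from an early median of 10.13 to 8.60, 7.40, 7.43 and 7.07, and Il6r, the interleukin-6 receptor, fell by 1.66 ± 0.25 with no overlap. Il6st, the signalling partner of that receptor, rose by 0.68 ± 0.13. Of 35 antioxidant genes 7 rose (20%, a smaller share than among all genes) and 2 fell (5.71%), with 1 higher and 1 lower under the block by code and 4 higher without leg 54. Nqo1, a target of Nrf2, rose by 1.11 ± 0.29, and Sod3, the extracellular superoxide dismutase, fell by 1.38 ± 0.27. Of 15 clock genes 6 fell (40%, against 12% of all genes) and 0 rose, and with the code as a block 0 were called. Those that fell included Nfil3 (by 1.97 ± 0.50), Cry2 (by 0.63 ± 0.16) and Per1 (by 0.81 ± 0.27, not called without leg 56, 0.107). The labels used here give no time of day. Of 11 polyamine genes 5 rose (45.5%, against 26.9% of all genes) and 1 fell (0 and 1 with the code as a block). Sat1, which acetylates spermidine, rose by 1.92 ± 0.37 and Odc1, the first enzyme of the pathway, by 1.21 ± 0.24. Of 11 measured cell cycle genes 3 rose (27.3%, near the 26.9% of all genes), namely Pcna (0.94 ± 0.16), Mcm7 (0.80 ± 0.13) and Cdk4 (0.50 ± 0.12), and Bub1 fell by 0.53 ± 0.17, a call lost without leg 44 (0.101). Rbm3, the cold-inducible RNA-binding protein, differed by 0.74 ± 0.31 and was not called (adjusted p = 0.0644, and 0.0279 without early leg 38).

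Markers of blood and vessel cells moved little or downward. Of 16 macrophage markers 4 fell (25%, against 12% of all genes, and 1 marker without leg 44) and 0 rose. The list means were 7.20 to 8.60 early and 7.10 to 8.09 later. Blocked by code or without code 5, 0 were called, and the list median of -0.43 was -0.05 with the block and 0.12 within code 3. All 4 measured mast cell markers fell (against 12% of all genes, and 1 marker without leg 54). With the block and without code 5 limma called 0 of these 4, and their median moved from -0.88 to -0.27 with the block. Among them, Cpa3, the mast cell carboxypeptidase, read 6.20, 6.41, 5.87 and 6.34 later against an early median of 7.22. None of 3 lymphocyte, 4 neutrophil, 9 adipocyte and 3 red blood cell markers was called in limma, and 1 of these 19 had an unadjusted p under 0.05, an adipocyte marker. Of 7 endothelial and 6 Schwann cell markers 1 each fell (14.3% and 16.7%, near the 12% of all genes). Of 11 smooth muscle and pericyte markers 3 fell and 1 rose (0 lower without leg 44), and of 8 satellite cell markers 2 fell and 1, Myf5, rose.

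Some of the largest and the most certain changes lay outside these lists. Cd151, a tetraspanin that binds laminin-binding integrins, had the smallest p of all genes. It ranged from 9.52 to 10.20 early and read 11.22, 11.16, 11.39 and 11.35 later, a rise of 1.45 ± 0.11, or 2.73-fold (adjusted p = 4.22e-08). Emb, the adhesion protein embigin, ranged from 4.63 to 8.59 early (median 5.37) and read 7.58, 9.53, 11.89 and 11.48 later, highest in the code 5 legs, and rose by 4.36 ± 0.64 (adjusted p = 3.41e-05). Ppp1r14c, an inhibitor of protein phosphatase 1, rose by 3.78 ± 0.45 with no overlap. Prrg4, a membrane protein with a Gla domain, rose by 2.79 ± 0.26, Akip1, which binds protein kinase A, by 2.76 ± 0.30, Abhd2, a hydrolase, by 2.65 ± 0.34, and Rangap1, of the nuclear import cycle, by 1.39 ± 0.14, all with no overlap. Ampd3, an AMP deaminase, rose by 2.93 ± 0.82, Gpnmb, a glycoprotein, by 2.69 ± 0.55 and Adra1b, an adrenergic receptor, by 2.83 ± 0.55. With the code as a block these 3 were not called (adjusted p = 0.429 for Ampd3, 0.0702 for Gpnmb and 0.126 for Adra1b). In Adra1b leg 42 (4.66) lay below the early median of 5.17 and the other 3 later legs read 8.13 to 9.70.

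Among the deepest falls, Lynx1, which binds and modulates nicotinic receptors, ranged from 9.11 to 11.39 early (median 11.13) and read 8.13, 7.64, 6.79 and 8.13 later. It fell by 3.12 ± 0.37, or 8.68-fold (adjusted p = 3.5e-06). Cmbl, a hydrolase, ranged from 10.30 to 11.42 early and read 9.47, 7.41, 8.42 and 8.23 later. It fell by 2.72 ± 0.25 (adjusted p = 4.76e-07). Asb11, a substrate adaptor of a ubiquitin ligase, fell by 2.51 ± 0.24 and Mlf1 by 3.17 ± 0.47, both with no overlap. Ky, a protein of the Z-disc whose loss causes kyphoscoliosis in mice, fell by 3.03 ± 0.65, and read 5.23 and 5.73 in the code 5 legs against 7.14 and 7.51 in legs 42 and 44. Mss51 (-3.59 ± 0.77), Lgi2 (-2.98 ± 0.64), Car12 (-2.96 ± 0.73) and Sema7a (-2.85 ± 0.67) completed the 15 largest falls together with genes described above. With the code as a block none of these 4 was called (adjusted p from 0.15 to 0.282, and -1.49 for Sema7a), nor was Ky (-2.46, adjusted p = 0.0958). Ky (0.0915) and Car12 (0.0624) were not called without code 5 either.

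The unloaded legs of the same rats went the same way. There 3337 genes (35.9%) were called between the same windows, 2190 higher (23.6%) and 1147 lower (12.3%), and 1874 of the 2503 higher and 816 of the 1117 lower genes of the loaded legs had the same call. The sign was the same for 2500 and 1105 of them. Both legs belong to the same rats, so the 2 comparisons are not independent. The test of the difference between the legs, with rats as a block, called 0 of 9289 genes in limma, with 557 at an unadjusted p under 0.05 and a smallest adjusted p of 0.419. With array quality weights it called 526, and without rat 41 it called 8. Chrna1 changed by 3.95 in the unloaded and 3.68 in the loaded legs, Ankrd1 by 4.30 and 4.63, Rpl3 by 2.02 and 1.98, Mstn by -3.35 and -3.54, Pfkfb1 by -3.29 and -3.91, and Col1a1 by -2.85 and -2.34. By list, 62 of 69 ribosomal proteins, 11 of 40 proteasome subunits and 10 of 20 receptor and denervation genes rose in the unloaded legs. The proteasome count lay near the share of all genes that rose there (23.6%), whereas 24 of 40 subunits rose in the loaded legs. Falls in the unloaded legs covered 19 of 28 matrix genes, 34 of 50 respiratory chain genes and 21 of 36 glycolysis genes, against 12.3% of all genes.

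The 3 genes with the smallest p for the difference between legs were C3h15orf48, Myo1g and Adck2. C3h15orf48, a small mitochondrial protein, ranged from 5.39 to 6.39 in the early loaded legs and read 8.21, 8.00, 7.38 and 8.29 in the later ones, a rise of 2.21 ± 0.39, against 0.77 in the unloaded legs. Adck2, a mitochondrial kinase-like protein, rose by 0.82 ± 0.15 in the loaded and 0.37 in the unloaded legs. Myo1g, a myosin of blood cells, differed by 0.24 ± 0.18 in the loaded legs and was not called there, against 1.08 in the unloaded legs. The differences between the changes were 1.44, 0.45 and -0.84, and none of them passed the adjustment.

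**Figure D5:**
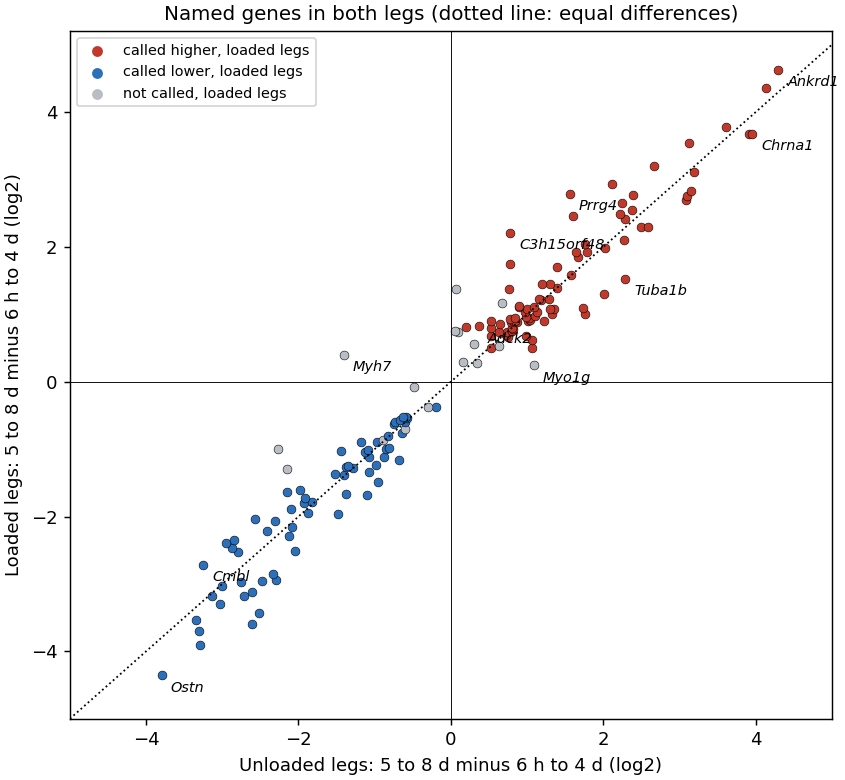
Difference between 5-8d and 6h-4d (log2) of each named gene in the unloaded legs (horizontal axis) and the loaded legs (vertical axis), red when called higher and blue when called lower in the loaded legs and grey when not called, with a dotted line where both are equal. Ankrd1, Chrna1 and Ostn lie near the line, C3h15orf48 lies above it (2.21 against 0.77) and Myo1g below it (0.24 against 1.08), and no difference between the legs passed the adjustment.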

How the data were processed

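The authors deposited log2 expression values of 46 arrays, made with RMA per the submitters' processing notes. Array scans, RMA settings and versions are not given in the sources used here. Of 26208 probe sets, 15088 carried 1 gene symbol in the platform annotation, 323 several and 10797 none, and 15058 of the symbols matched RefSeq by gene ID. Probe sets above the median of their own array on 4 or more of the 46 arrays were tested (14834), and the brightest kept probe set stood for its gene (9289 genes).

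Windows were compared with limma 3.58.1 (R 4.3.3, lmFit and eBayes, two-sided) over the 23 loaded legs, with Benjamini-Hochberg adjustment over all genes and a threshold of 0.05. In the main fits the third window (9-14d) entered the estimate of the spread alone. With the code as a block, its legs of codes 3 and 5 also helped to estimate the code effect. Through that effect they entered the blocked difference between 5-8d and 6h-4d. The unloaded legs were fitted likewise, and the difference between legs with a block for each rat over the 46 arrays. The script was tested on simulated data. Values are log2 differences with their SE, and a fold is given only where both group means exceed the lowest array median (6.07). RMA compresses differences between dim probe sets, and each array was treated as 1 rat.

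The members, gene lists and tests were chosen with earlier results of these data known. Genes were named by rule: the 15 largest called rises and falls, up to 4 called members of each list with the largest difference, 20 chosen genes whatever their result, the 5 smallest p and the 3 smallest p for the difference between legs (143 genes). A further 17 list members were named after their values were seen: Chrnb1, Chrnd, Chrne, Musk, Lrp4, Foxo1, Foxo3, Hk2, Tfam, Kera, Chad, Tnmd, Cpa3, Clcn1, Ankrd2, Tnnt1 and Myl2. The value of Trim55 is given as well, outside these 160 genes and without the checks made on them. The legs of a rat were inferred from adjoining numbers with the same window and code. Deviations of the 2 legs of a rat from their group means correlated above 0.1 in 15 of 17 rats (median 0.52), the exceptions being rat 17 (0.08) and rat 27 (-0.35). Loaded leg 28, which lay closest to leg 22, was assigned to rat 27.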

Additional observations from a re-analysis of the deposited data

Results flagged for a closer look

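In 5 of the 160 named genes, 1 of the 4 loaded legs at 5-8d lay apart from the other 3 by more than the critical gap for 4 samples, a test that chance alone passes in about 1 of 20 groups. Chrna1, the acetylcholine receptor alpha subunit, read 8.60 in leg 42 and 12.65 or more in the other 3 legs. The unloaded leg of the same rat read 10.30, and the other unloaded legs of that window 12.61 to 13.42. Mylk2, the fast myosin light chain kinase, read 10.70 in leg 42, and the nearest other leg 9.92. Cry2, a clock repressor, read 9.34 in leg 42, and the nearest other leg 8.93. Aqp4, a water channel, read 5.93 in leg 44 and 5.71 in the nearest leg, with all 4 legs below the array medians. Mlf1 read 6.09 in leg 54 and 6.55 in the nearest leg. The cause of these gaps was not tested.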

How the results depend on the processing

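Of the loaded-leg counts (2503 higher, 1117 lower), the higher count moved by over 1.5 times with the code as a fixed block (557, and 293 lower), within code 3 (1 and 0), without code 5 (1387 and 579) and with probe sets not collapsed to genes (3788 and 1725 of 14834). The last counts are over 14834 probe sets in place of 9289 genes, and their shares stayed close to those over genes. Array quality weights moved the lower count to 1877. Of the genes called with the block, 523 higher and 256 lower were also called without it. With legs 22 and 28 averaged the counts were 2381 higher and 1045 lower. Leaving out 1 leg gave 1912 (leg 54) to 2648 (leg 38) higher and 826 (leg 54) to 1254 (leg 38) lower genes. In the unloaded legs, weights gave 3370 higher and 2005 lower, the block by code 501 and 256, and leaving out 1 leg 1430 to 2467 higher and 793 to 1270 lower. For the difference between legs, weights called 526 genes and leaving out 1 rat 0 to 8. Without pairing the legs (no replicate block) it called 0, with 112 at an unadjusted p under 0.05. No paired analysis was possible because the 2 windows hold different rats, so replicate numbers do not pair them.

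Signs turned for Myh1 without leg 44 (0.00365, range over left-out legs -0.138 to 0.00365), for Myo1g without code 5 (-0.0167) and for Myh7 with the code as a block (-0.0347), without code 5 (-0.589) and without leg 54 (-0.106, range over left-out legs -0.106 to 0.742). Of the 144 named genes that were called, 60 kept the call with the code as a block and 84 lost it, and within code 3 0 kept it and 144 lost it in limma. The median SE within code 3 was 0.21, against 0.14 over all loaded legs. All 144 named genes kept their sign within code 3, as did 2449 of the 2503 higher and 1102 of the 1117 lower genes. The legs of code 3 are part of the full comparison, so these signs are not independent of it. The causes were not tested. The arrays give no read depth, and genes near the array median give compressed differences.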
